A study of Homo sapiens with 36 samples.

Results

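Inhibition of the SWI/SNF ATPases was examined in cells under glucocorticoid, by setting the 4 ATAC-seq libraries labelled DEX+BRM014 against the 4 labelled DEX+DMSO. These are 8 of the 36 libraries of a series on BT549, a human line derived from a triple-negative breast tumour, which the labels list as wild type. DEX+BRM014 cells received 500 nM dexamethasone for 4 h and 10 µM BRM014 for 4 h, and DEX+DMSO cells received the same dexamethasone with DMSO, the solvent of BRM014. Both groups therefore carry the glucocorticoid, and only the inhibitor separates them. The order in which the agents were added is not stated in the labels. Members were chosen by the group in the sample titles, which number 4 biological replicates per group, all of 1 cell line. Libraries of the same series without dexamethasone (BRM014 and DMSO, 4 each), with siRNA against both ATPases or control siRNA (siBRG1+siBRM and siCtl, 4 each), and with control siRNA plus 500 nM dexamethasone or vehicle for 2 h (siCtl_DEX and siCtl_Veh, 3 each) were used where stated.

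SWI/SNF complexes use the energy of ATP to slide or eject nucleosomes, through one of a pair of related ATPases, BRG1 (gene SMARCA4) or BRM (gene SMARCA2), and BRM014 blocks the ATPase activity of both. The glucocorticoid receptor (gene NR3C1) is a hormone-dependent transcription factor that binds mostly at enhancers, many of them in chromatin that is already open, and it recruits remodelling complexes. ATAC-seq marks open chromatin by the sites where a transposase can insert, and a peak is a stretch in which insertions exceed the local background.

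The 8 peak lists merged into 155093 regions on chromosomes 1 to 22 and X, and a library held a region when one of its peaks overlapped it by at least 1 bp. Of the 67238 regions held by all 4 DEX+DMSO libraries, 17632 were held by no DEX+BRM014 library, which is 26.2% of them (11.4% of all regions). These are called lost. A further 15153 regions (22.5%) were held by 1 to 3 DEX+BRM014 libraries, and 34453 (51.2%) were held by all 4 and are called kept. In the other direction, 124 regions were gained, held by all 4 DEX+BRM014 libraries and by no DEX+DMSO library, which is 0.0800% of all regions and 0.784% of the 15816 that no DEX+DMSO library held. When every library was kept to its best 49906 peaks, 5846 regions were lost and 1306 gained, so both counts move with the number of peaks called. Lost and gained are counts fixed by that rule and carry no test of their own.

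The sequences of 5 promoter windows at lost regions are printed beside those of 3 at kept regions. Of all lost regions 10.7% lay within 1 kb of a gene end, so these windows do not stand for lost regions in general. The windows run from 250 bases before to 50 bases after a RefSeq gene start on GRCh38.p14, and the letters are those of the gene's strand, 5′ to 3′. Capitals mark matches, on either strand, to the AP-1 motif TGACTCA, the glucocorticoid receptor motif ACANNNTGT and the TEAD motif GGAATG, none of which contains another. AP-1 is the family of FOS and JUN dimers, and TEAD factors are the DNA-binding partners of YAP. A match is a string of letters and not a measured binding site. MBNL2, which encodes a splicing regulator, is shown because its start was the strongest-ranked promoter to be lost, a choice made after its values were seen. The others are genes of the lists described further on. Of 14 lost promoters at named or listed genes, those of MBNL2, ACVR1, F3 and EGFR were the 4 with an AP-1 match, 1 more had a TEAD match and 9 had no match to these motifs, of which VGLL4 is printed. The printed set therefore holds more AP-1 matches than lost promoters in general, 11.3% of which had one. ACVR1 encodes a receptor of the bone morphogenetic protein family, EGFR the epidermal growth factor receptor, F3 tissue factor and VGLL4 a cofactor that competes with YAP for TEAD. CXCL8 encodes a neutrophil chemokine, CCN2 a matrix protein and YAP target, and MT2A a metallothionein that glucocorticoids induce. A window can reach beyond its region. The receptor match of MBNL2, the second AP-1 match and the TEAD match of EGFR, and the AP-1 match of CXCL8 lie outside the region.
MBNL2: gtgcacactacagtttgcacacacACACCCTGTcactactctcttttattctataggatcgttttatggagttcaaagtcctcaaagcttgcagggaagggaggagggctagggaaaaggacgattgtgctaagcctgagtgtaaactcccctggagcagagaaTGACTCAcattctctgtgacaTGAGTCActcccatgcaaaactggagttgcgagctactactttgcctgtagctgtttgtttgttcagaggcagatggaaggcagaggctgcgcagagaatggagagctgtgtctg
ACVR1: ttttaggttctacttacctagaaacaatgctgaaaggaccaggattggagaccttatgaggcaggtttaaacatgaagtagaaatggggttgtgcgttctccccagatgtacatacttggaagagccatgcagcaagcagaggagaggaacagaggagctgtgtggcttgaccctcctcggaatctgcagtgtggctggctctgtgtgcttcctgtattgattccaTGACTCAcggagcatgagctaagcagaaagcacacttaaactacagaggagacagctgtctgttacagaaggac
F3: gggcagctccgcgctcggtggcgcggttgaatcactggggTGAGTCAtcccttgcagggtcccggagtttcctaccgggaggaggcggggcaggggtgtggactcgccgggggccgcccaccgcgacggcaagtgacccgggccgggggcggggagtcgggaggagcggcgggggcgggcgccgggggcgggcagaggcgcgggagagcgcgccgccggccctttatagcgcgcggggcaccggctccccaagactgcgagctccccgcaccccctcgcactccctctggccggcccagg
EGFR: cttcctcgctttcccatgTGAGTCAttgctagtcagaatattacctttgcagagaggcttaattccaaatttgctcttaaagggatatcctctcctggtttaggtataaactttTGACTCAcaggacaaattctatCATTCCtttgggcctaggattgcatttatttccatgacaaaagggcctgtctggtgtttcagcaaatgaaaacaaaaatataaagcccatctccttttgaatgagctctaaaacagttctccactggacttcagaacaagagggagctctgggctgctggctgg
VGLL4: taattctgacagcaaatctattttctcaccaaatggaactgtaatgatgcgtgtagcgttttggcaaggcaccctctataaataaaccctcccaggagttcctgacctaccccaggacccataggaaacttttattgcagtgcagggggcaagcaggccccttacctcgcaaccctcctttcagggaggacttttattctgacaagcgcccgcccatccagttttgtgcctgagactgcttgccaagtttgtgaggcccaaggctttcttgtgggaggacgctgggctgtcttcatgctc
CXCL8: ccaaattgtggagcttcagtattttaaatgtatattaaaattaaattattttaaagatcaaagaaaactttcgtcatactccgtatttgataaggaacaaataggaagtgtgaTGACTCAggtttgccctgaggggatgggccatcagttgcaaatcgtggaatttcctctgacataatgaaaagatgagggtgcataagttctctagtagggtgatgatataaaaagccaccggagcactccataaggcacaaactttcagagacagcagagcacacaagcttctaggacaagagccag
MT2A: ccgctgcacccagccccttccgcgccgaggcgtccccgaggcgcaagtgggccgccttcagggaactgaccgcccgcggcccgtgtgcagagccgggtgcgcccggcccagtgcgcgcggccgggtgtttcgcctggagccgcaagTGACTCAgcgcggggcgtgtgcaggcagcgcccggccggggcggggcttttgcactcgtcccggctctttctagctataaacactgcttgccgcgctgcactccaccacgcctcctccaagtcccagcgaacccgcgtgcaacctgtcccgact
CCN2: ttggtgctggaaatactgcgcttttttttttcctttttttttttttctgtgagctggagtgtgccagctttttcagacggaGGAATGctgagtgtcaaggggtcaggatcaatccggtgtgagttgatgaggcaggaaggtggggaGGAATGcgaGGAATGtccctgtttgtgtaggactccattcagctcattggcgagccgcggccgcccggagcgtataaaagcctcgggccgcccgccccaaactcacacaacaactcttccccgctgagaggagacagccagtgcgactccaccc

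The MBNL2 start (window chr13:97141584-97141883, plus strand) had no peak in the DEX+BRM014 libraries and folds over background of 31.2, 32.3, 26.5 and 28.4 in DEX+DMSO replicates 1 to 4. A fold here and below is the authors' value for a single peak against the background of its own library, and it describes that peak. The MBNL2 region lay at a mean rank within the top 6.35% of the DEX+DMSO lists, and it holds 2 AP-1 matches at positions -86 and -65 from the start. The ACVR1 window (chr2:157838581-157838880, minus strand), which lies at a start inside the gene, had no peak in DEX+BRM014 and folds of 12.4, 7.77, 15.5 and 7.06 in DEX+DMSO. Its AP-1 match lies at -24, within the lost region. The F3 window (chr1:94541710-94542009, minus strand) had no peak in DEX+BRM014 and folds of 9.52, 8.59, 7.32 and 9.25 in DEX+DMSO, with an AP-1 match at -210 in the region. EGFR (chr7:55109589-55109888, plus strand, also at a start inside the gene) had no peak in DEX+BRM014 and folds of 6.55, 6.87, 7.01 and 4.76 in DEX+DMSO. At VGLL4 (chr3:11582307-11582606, minus strand, inside the gene) none of the 3 motifs matched, and the folds in DEX+DMSO were 20.3, 18.0, 13.9 and 18.5 against no peak in DEX+BRM014. In these 5 windows the groups did not overlap, which the choice of lost windows fixes.

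The kept promoters held a peak in all 8 libraries. CXCL8 (chr4:73740319-73740618, plus strand) had folds of 4.85, 12.4, 8.23 and 7.56 in DEX+BRM014, against 12.6, 16.4, 16.9 and 18.0 in DEX+DMSO, so that the groups did not overlap. MT2A (chr16:56608334-56608633, plus strand), whose AP-1 match at -104 lies in the region, had folds of 15.7, 13.3, 13.6 and 15.7 in DEX+BRM014, against 6.45, 6.52, 6.44 and 7.29 in DEX+DMSO. MT2A thus ran the other way, with every DEX+BRM014 value above every DEX+DMSO value. CCN2 (chr6:131951323-131951622, minus strand), with 3 TEAD matches, had folds of 6.97, 6.41, 5.74 and 7.53 in DEX+BRM014, against 5.97, 5.03, 5.49 and 6.70 in DEX+DMSO, and these overlapped. These 3 windows were chosen after their values were seen. How many of the 34453 kept regions separate the groups in either direction was not counted, so a separation here does not mark these genes out. Folds of 2 libraries depend on the background of each, and these 3 differences were not tested.

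Across the whole genome, fewer and narrower peaks were found with the inhibitor. The DEX+BRM014 libraries held 64198, 56993, 50979 and 49906 peaks in replicates 1 to 4, against 103956, 97681, 98818 and 94777 in DEX+DMSO. The means were 55519 ± 6573 in DEX+BRM014 and 98808 ± 3831 in DEX+DMSO (SD, n = 4 each), a difference of -43.8%. Covered length averaged 9.50 ± 0.994 Mb in DEX+BRM014 and 18.9 ± 0.655 Mb in DEX+DMSO. Peaks with summits over 1 kb from both ends of every annotated gene, called distal here, made up 64.3 ± 2.21% of the peaks in DEX+BRM014 and 74.0 ± 0.545% in DEX+DMSO. In the regions held by all 8 libraries the median peak was 179, 176, 168 and 164 bp wide in DEX+BRM014, against 216, 211, 212 and 210 bp in DEX+DMSO. Each of these measures separated the groups without overlap, with p = 0.0286 in a two-sided exact permutation test over libraries (adjusted p = 0.0286 by Benjamini-Hochberg over the measures). That is the smallest p that 4 against 4 libraries can give, so it reflects only that the groups of these libraries did not overlap. With libraries paired by replicate number, an exact sign-flip test gave p = 0.125 for each measure, the smallest that 4 pairs allow.

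**Figure D1:**
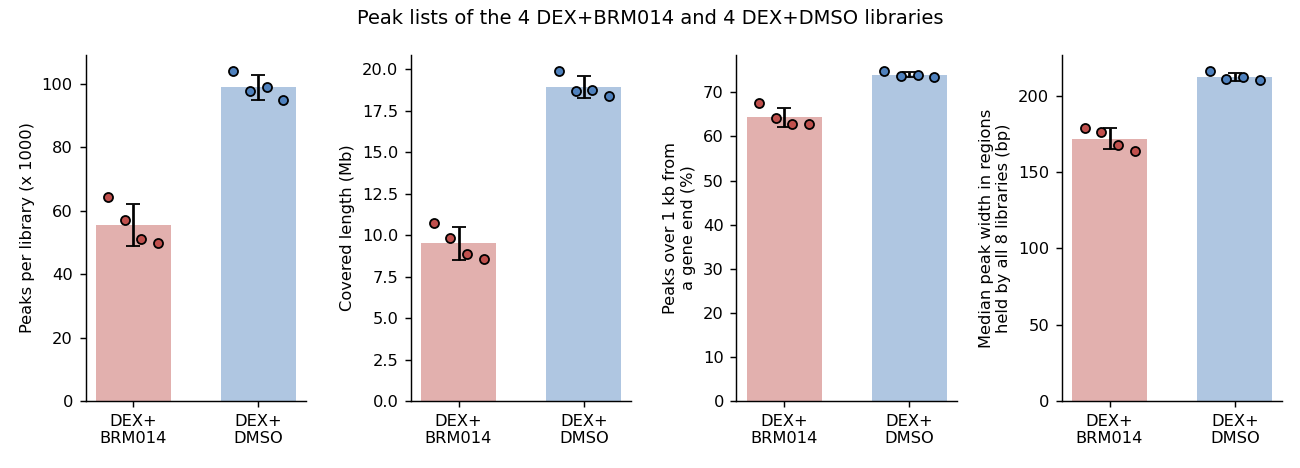
Peaks per library, covered length (Mb), share of peaks over 1 kb from a gene end (%) and median peak width in regions held by all 8 libraries (bp), for DEX+BRM014 and DEX+DMSO. Points are replicates 1 to 4 from left to right, bars are means and error bars are SDs (n = 4). In every panel the 4 DEX+BRM014 points lie below the 4 DEX+DMSO points.

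Peak lists carry no read totals, so depth is unknown. The background level, worked out from the deposited fold and p of the 3000 weakest peaks in a library, averaged 0.28 ± 0.0342 in DEX+BRM014 and 0.273 ± 0.0233 in DEX+DMSO (exact permutation p = 0.743). DEX+BRM014 replicate 1 stood apart: it had the most peaks and the lowest background of its group, 0.236. In addition 68.4% of its weak peaks lay at the library's lowest background, against 14.4 to 17.8% in DEX+BRM014 replicates 2 to 4 and 73.4 to 90.4% in DEX+DMSO. The part of this difference in the results was not tested. Without DEX+BRM014 replicate 1 the peaks differed by -46182 per library in the same direction, and 189 regions were gained in place of 124. Leaving out any library loosens the rule, since fewer must agree. Over all such runs 157 to 276 regions were gained, so the rise is not particular to replicate 1. Of markers checked at gene ends, VIM, CDH2, FN1, CD44 and AXL, genes of mesenchymal-like breast lines, held peaks in all 4 libraries of each group. ESR1, PGR and TFF1, luminal genes, had no peak at a gene end in any of the 8 libraries. FOXA1, also luminal, held one in all 8, and GATA3 in 0 DEX+BRM014 and 1 DEX+DMSO libraries. ZEB1, a mesenchymal regulator, held one in 2 DEX+BRM014 and 4 DEX+DMSO libraries. PECAM1, CDH5 and RBFOX3, markers of endothelium and neurons, had none. PTPRC and CD3E, leukocyte genes, held one in 3 and 0 DEX+BRM014 libraries and in 4 and 3 DEX+DMSO libraries, and SNAP25, a neural gene, in all 8.

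The lost regions were mostly distal. At 0 to 1 kb from a gene end 9.56% of the held regions were lost, at 1 to 10 kb 26.8%, at 10 to 50 kb 35.4%, at 50 to 100 kb 41.6% and beyond 100 kb 41.6%. Of the lost regions, 55.5% lay inside a gene away from its ends, 33.8% lay outside genes and 10.7% lay within 1 kb of a gene end, while 42.1% of kept regions did. Lost regions were also weaker before inhibition: their median fold in DEX+DMSO was 7.59 (quartiles 6.0 and 10.4), against 15.5 (10.8 and 21.6) for kept regions. A weak peak falls below a caller's threshold more easily, so place was also read within classes of rank. In the strongest of 5 rank classes 5.04% of distal and 0.327% of gene-end regions were lost, and in the weakest class 58.9% and 37.5%. In each of the 5 classes the distal share lost was the larger. Because these regions were chosen on the compared libraries, these shares are descriptions.

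**Figure D2:**
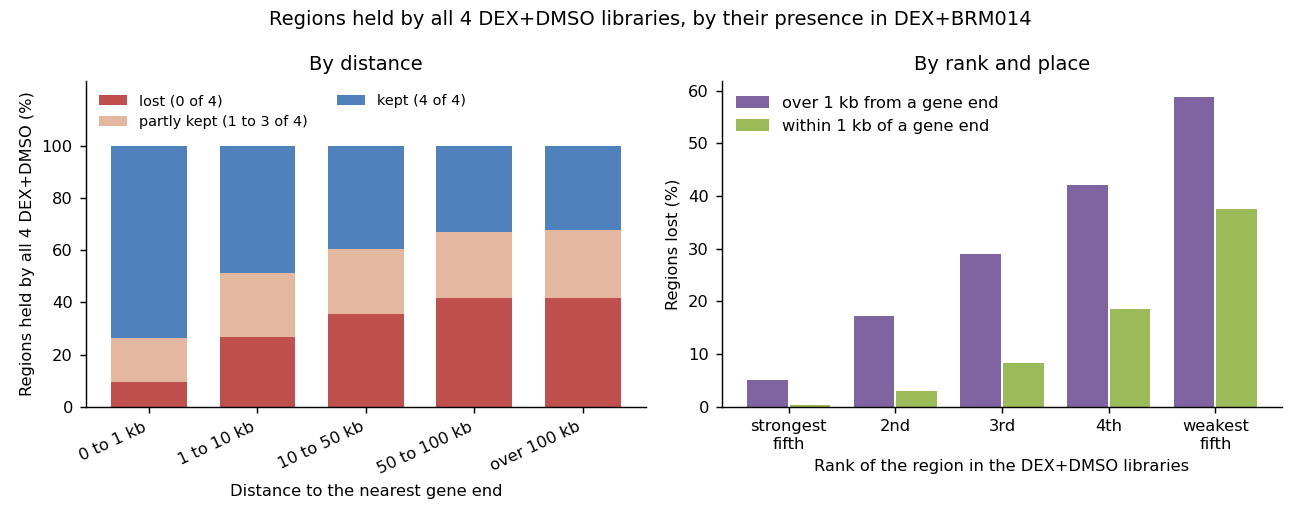
Left, regions held by all 4 DEX+DMSO libraries (%) split by how many DEX+BRM014 libraries held them, against distance to the nearest gene end. Right, the share lost (%) by rank in the DEX+DMSO lists, for regions over 1 kb from and within 1 kb of a gene end. The share lost is 9.56% within 1 kb and 41.6% beyond 100 kb, and the bar for distal regions is the higher in all 5 rank classes.

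A set of regions chosen without the compared libraries gave a test of the same pattern. Of 92107 regions held by all 3 siCtl_DEX libraries of another experiment, a set added after the data were seen, the DEX+BRM014 libraries held 53.4, 50.7, 46.7 and 46.2% and the DEX+DMSO libraries 84.2, 82.2, 82.0 and 81.6%. Within 1 kb of gene ends the means were 68.0 ± 2.77% in DEX+BRM014 and 86.0 ± 0.784% in DEX+DMSO. For distal regions they were 42.2% in DEX+BRM014 and 81.2% in DEX+DMSO. The ratio of the distal to the gene-end share was 0.621 ± 0.0304 in DEX+BRM014 and 0.943 ± 0.00908 in DEX+DMSO (n = 4 each, exact permutation p = 0.0286, adjusted p = 0.0286). Split into 3 equal classes by strength in siCtl_DEX, that ratio was 0.771 in DEX+BRM014 and 0.999 in DEX+DMSO in the strongest class, and the groups separated in all 3 classes (exact permutation p = 0.0286 in each). With the best 49906 peaks of each library, the held share of all these regions differed by -5.47 points in place of -33.3, in the same direction and without overlap (exact permutation p = 0.0286).

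Regions opened by dexamethasone were held least in DEX+BRM014 of the classes compared. In the same independent set, 4325 regions were held by no siCtl_Veh library, and 80119 were held by all 3 siCtl_Veh libraries. Regions held by all 3 siCtl_DEX libraries and no siCtl_Veh library are called opened by hormone at 2 h, here and below. The name rests on called peaks only, and a region with signal just under the caller's threshold in vehicle would also carry it. The DEX+BRM014 libraries held 6.94% of the opened regions and the DEX+DMSO libraries 55.3%. Of the regions open without hormone, DEX+BRM014 libraries held 55.0% and DEX+DMSO libraries 87.1%. The ratio of the opened to the hormone-independent share was 0.125 ± 0.0326 in DEX+BRM014 and 0.635 ± 0.0147 in DEX+DMSO (n = 4 each, exact permutation p = 0.0286, adjusted p = 0.0286). These 2 classes were not matched for strength. In the weakest strength class, DEX+DMSO libraries held 51.1% of gene-end and 56.4% of distal regions, near their 55.3% of opened regions. DEX+BRM014 libraries held 20.5% and 16.5% of that weakest class. The part of strength in the ratio was not tested. Among regions held by all 4 DEX+DMSO libraries, 1178 of the 1499 opened at 2 h were lost (78.6%), against 22.4% of the 61754 that all siCtl_DEX and siCtl_Veh libraries held. Most lost regions were nevertheless open without hormone: 11644 of the 17632 (66.0%) were held by all 4 DMSO libraries without dexamethasone, and 2006 (11.4%) by none. Of all 67238 regions held by the 4 DEX+DMSO libraries, 57143 were held by all 4 DMSO libraries and 2527 by none. The share lost was 20.4% of those 57143 and 79.4% of those 2527, so lost regions were open without hormone less often than the whole set.

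**Figure D3:**
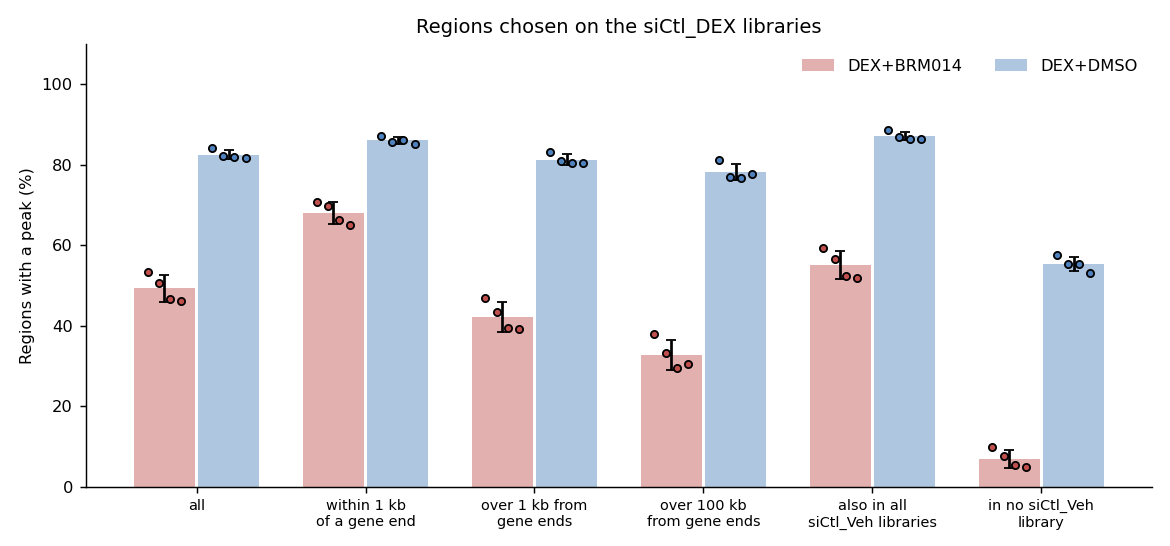
Share of regions with a peak (%) in DEX+BRM014 and DEX+DMSO libraries, for regions chosen on the siCtl_DEX libraries and split by place and by presence in siCtl_Veh libraries. Points are libraries, bars are means and error bars are SDs (n = 4). The 4 DEX+BRM014 points lie below the 4 DEX+DMSO points in every class, and the class held by no siCtl_Veh library is at 6.94% in DEX+BRM014 and 55.3% in DEX+DMSO.

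Glucocorticoid receptor targets are genes that the hormone regulates in many tissues. Within 50 kb of the 40 genes of that list, 113 of 389 held regions were lost (29.0%, exact 95% binomial interval 24.6 to 33.8%, which covers counting error only), beside 26.2% of all regions. Of the 53 that hormone had opened at 2 h, 37 were lost (69.8%) and 4 were kept, beside 78.6% lost of all hormone-opened regions. Of those held with and without hormone, 52 were lost (17.2%) and 198 kept, beside 22.4% lost of all such regions. TSC22D3, whose product GILZ damps inflammation, had 13 held regions, of which 6 were lost, 4 partly kept and 3 kept. All 6 of its regions opened by hormone were lost. One of them (chrX:107700312-107700749, outside the gene) had no peak in DEX+BRM014 and folds of 12.7, 9.90, 10.6 and 11.6 in DEX+DMSO. FKBP5, a co-chaperone that feeds back on steroid receptors, had 6 lost, 9 partly kept and 3 kept regions, and of its 8 regions opened by hormone 4 were lost and none was kept. A lost region 516 bp from an end of FKBP5 (chr6:35728991-35729207) had no peak in DEX+BRM014 and folds of 4.14, 4.68, 4.33 and 4.89 in DEX+DMSO. It was held by 0 of 4 BRM014 and 0 of 4 DMSO libraries, and by 3 of 3 siCtl_DEX and 0 of 3 siCtl_Veh libraries.

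ZBTB16, a zinc-finger repressor strongly induced by glucocorticoids, had the most losses of the 10 genes fixed for naming: 14 of 25 held regions, with 8 kept. Of its 7 hormone-opened regions 4 were lost and 1 was kept. With the best 49906 peaks of each library, ZBTB16 had 4 lost regions, as TSC22D3 did, FKBP5 had 3, and DUSP1 and KLF9 had 2 each. The lost region at its own end (chr11:114059334-114059893) had no peak in DEX+BRM014 and folds of 10.3, 10.9, 8.88 and 11.0 in DEX+DMSO. DUSP1, a phosphatase that switches off MAP kinases, had 6 of 13 regions lost and 6 kept, and all 3 of its regions opened by hormone were lost. KLF9, a Krüppel-like factor, had 4 of 12 lost, and of its 3 hormone-opened regions 1 was lost and 1 kept. Within 50 kb of PER1, a clock gene with receptor sites near its start, 1 of 22 regions was lost and 20 were kept. That lost region (chr17:8153606-8153794) had folds of 9.46, 7.50, 7.57 and 6.29 in DEX+DMSO and no peak in DEX+BRM014. PER1 had 21 regions held in all siCtl_Veh and siCtl_DEX libraries and no hormone-opened one. None of its 22 held regions had its centre within 1 kb of an end of PER1 itself. Regions at the ends of neighbouring genes were not separated, so the count describes the neighbourhood and not PER1 alone. PDK4, a kinase that restrains glucose oxidation, had 5 of 7 regions lost, 1 partly kept and 1 kept.

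The genes of the receptor, the target ATPases and GATA6 had few held regions. NR3C1 had 3 of 10 held regions lost and 5 kept, and its 3 lost regions were also held in all siCtl_Veh libraries. SMARCA4 had 2 of 9 lost, both over 20 kb from its ends, and 7 kept. SMARCA2 had 2 held regions, of which none was lost. The one at its end (chr9:2015040-2015388) had folds of 28.2, 26.6, 23.2 and 23.3 in DEX+BRM014, against 28.4, 30.0, 29.2 and 29.4 in DEX+DMSO. GATA6, a transcription factor that another experiment of the series knocks down, had 2 of 8 lost, 3 partly kept and 3 kept, with its end region kept in all 8 libraries. A peak list measures neither RNA nor protein, so these counts say nothing of the genes' expression.

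**Figure D4:**
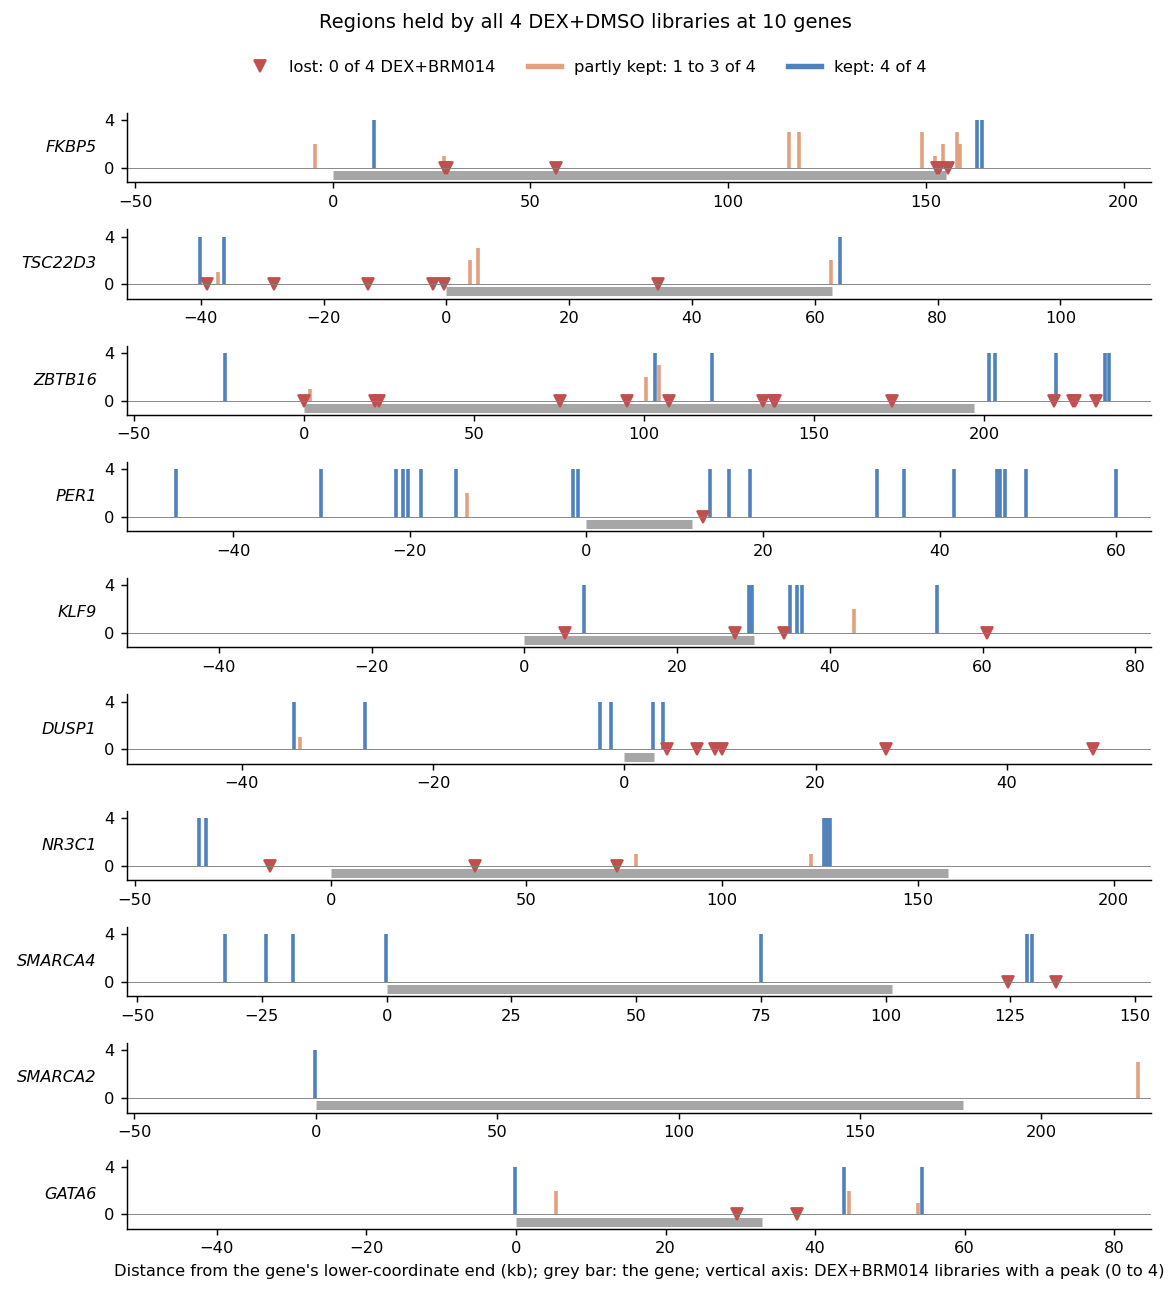
Regions held by all 4 DEX+DMSO libraries within 50 kb of 10 genes, placed by distance from the gene's lower-coordinate end (kb), with the gene as a grey bar. The height of a line is the number of DEX+BRM014 libraries with a peak, and a triangle at 0 marks a lost region. ZBTB16 has 14 triangles, TSC22D3 6 and PER1 1.

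The other gene lists differed widely in the share of their regions lost. Over 19 lists the share ran between 9.74 and 34.5%, with a median of 25.3%, and 8 lists lay above the 26.2% of all regions. YAP and TEAD targets had the highest, 100 of 290 regions (34.5%, interval 29.0 to 40.3%), and 22 of the 24 genes had at least 1 lost region, where 59.2% of all protein-coding genes with a held region did. A gene with more held regions has more chances of a lost one. The genes were not matched for that number, so the 22 of 24 does not show an excess. RBMS3, an RNA-binding protein, lost 12 of 22, CRIM1, a transmembrane protein that binds bone morphogenetic proteins, lost 8 of 16, and AMOTL1, an angiomotin that binds YAP, lost 6 of 9. Basal mammary genes lost 54 of 171 (31.6%), with 10 of 18 at LAMA3, a laminin chain of basement membrane, and 10 of 17 at CDH3, which encodes P-cadherin. Mesenchymal and matrix genes lost 97 of 365 (26.6%), close to all regions, with 9 of 18 at FBN1 (fibrillin) and 6 of 9 at DCN (decorin). At TEAD3 both held regions within 1 kb of its ends were lost. TEAD4 had 0 of 10 lost.

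Over all their held regions, lists of housekeeping genes and of leukocyte markers lay at the low end. Mitochondrial respiratory chain genes lost 19 of 195 regions (9.74%), ribosomal protein genes 48 of 422 (11.4%) and cell cycle genes 40 of 294 (13.6%), and leukocyte markers lost 7 of 70 (10.0%). Neural markers lost 23 of 80 (28.8%) and endothelial markers 15 of 57 (26.3%). SWI/SNF subunit genes lost 42 of 292 (14.4%), of which 9 lay at DPF3, a subunit of a tissue-restricted form, with 2 at its ends. NF-kB and cytokine genes lost 30 of 202 (14.9%), and AP-1 factor genes 31 of 171 (18.1%), with 7 of 12 at ATF3, a stress-induced member. Gene-end regions were lost less often genome-wide. They made up 115 of the 195 held regions of the respiratory chain list and 48 of the 70 of the leukocyte markers. Of the YAP and TEAD targets they made up 69 of 290. Among distal regions the share lost was 41.2% for YAP and TEAD targets, 35.3% for glucocorticoid receptor targets, 24.1% for NF-kB and cytokine genes, 20.5% for ribosomal protein genes and 8.75% for respiratory chain genes, while 33.3% of distal regions inside genes and 32.8% of those outside genes were lost. Leukocyte markers lost 6 of 22 distal regions (27.3%), a share above that of the NF-kB and cytokine genes. At their own ends, 1274 of 12763 protein-coding genes lost a region (9.98%).

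**Figure D5:**
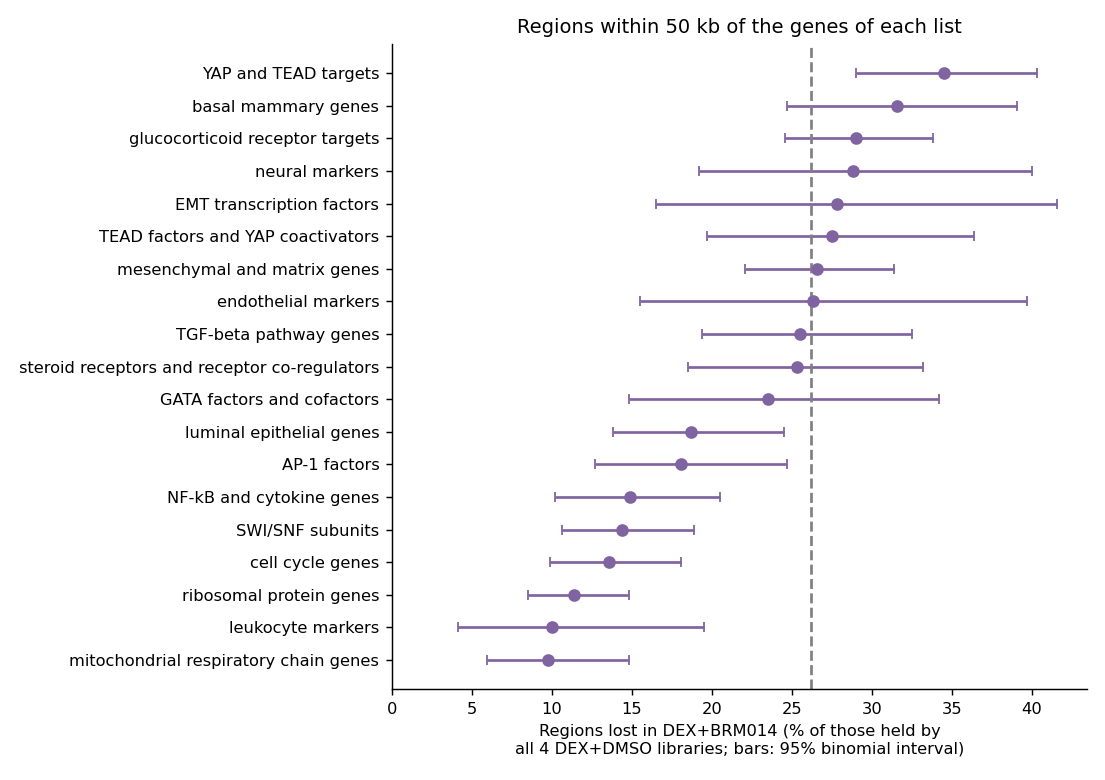
Share of regions lost (%) within 50 kb of the genes of each of 19 lists, with exact 95% binomial intervals, beside the 26.2% of all regions held by all 4 DEX+DMSO libraries (dashed line). YAP and TEAD targets are highest at 34.5% and respiratory chain genes lowest at 9.74%.

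Counts for single genes depend on the number of peaks called: with the best 49906 peaks of each library, 92 of 118 such counts moved by over 1.5 times. With all peaks, GPC6 had the most lost regions of all protein-coding genes, 29 of 52, followed by NRG1 with 23 of 56, FRMD4A with 21 of 36, LRMDA with 20 of 41 and CAST with 18 of 41. With equal numbers of peaks these were 16 at GPC6, 6 at NRG1, 4 at FRMD4A, 7 at LRMDA and 6 at CAST. GPC6 encodes a glypican, NRG1 a ligand of the ERBB receptors and CAST calpastatin. The lost regions ranked strongest in DEX+DMSO included one inside ETS1 (chr11:128582991-128583178), which encodes an ETS transcription factor, with folds of 39.5, 35.6, 40.9 and 40.7 in DEX+DMSO and no peak in DEX+BRM014. One inside P4HA2, a collagen prolyl hydroxylase (chr5:132215160-132215707), had folds of 30.4, 25.4, 30.1 and 25.5 in DEX+DMSO and no peak in DEX+BRM014. The others of the 8 best-ranked lay inside PSCA, CTSB, ANK1, MSRA and SIL1 and near ZBTB18. The PSCA and CTSB regions held a peak in all 4 siBRG1+siBRM libraries.

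Promoter windows were searched for 10 motifs. Of 10819 windows at a region held by all 4 DEX+DMSO libraries, 328 were lost, 852 partly kept and 9639 kept. The AP-1 motif TGACTCA occurred in 11.3% of lost windows, 6.57% of partly kept and 2.34% of kept, against 3.97% of all 18982 windows. The receptor motif ACANNNTGT occurred in 6.1% of lost and 1.82% of kept windows, against 3.83% of all. The ETS motif CCGGAAG went the other way, in 6.71% of lost and 21.9% of kept windows, against 13.2% of all, as did the NRF1 motif GCGCANGC, in 6.71% of lost and 24.9% of kept windows, against 15.8% of all. The GATA motif AGATAA stood at 6.4% of lost and 3.57% of kept windows, against 7.57% of all, and the TEAD motif GGAATG at 11.9% of lost and 9.76% of kept, against 12.1% of all. The NFY motif (CCAAT) occurred in 29.3% of lost and 38.7% of kept windows, against 35.1% of all. The CREB motif (TGACGTCA) occurred in 0.915% of lost and 3.71% of kept windows, against 2.39% of all. The E-box (CACGTG) occurred in 7.32% of lost and 10.7% of kept windows, against 8.4% of all, and the SP1/KLF motif (GGGCGG) in 57.9% of lost and 76.1% of kept, against 57.8% of all. Both strands were searched. CpG content moved with loss as well: 25.5% of windows with at most 5 CpGs were lost, and 1.83% of those with more than 25. Within the windows of at most 5 CpGs, AP-1 matched 27.5% of 69 lost and 16.2% of 136 kept, and within those of more than 25 CpGs 3.48% of 115 lost and 1.79% of 5709 kept. The ETS, NRF1, CREB, E-box and SP1/KLF strings each contain a CG, so their matches depend on CpG content. ETS matched 0% of lost and of kept windows with at most 5 CpGs. It matched 4.82% of lost and 17.2% of kept with 6 to 15 CpGs, and 4.92% and 26.3% with 16 to 25. Above 25 CpGs it matched 13.0% of lost and 20.8% of kept. The parts of the motifs and of CpG content in the loss were not tested apart. Windows exist for 15812 of 19974 protein-coding genes.

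Regions lost under dexamethasone were also held less often with the inhibitor alone and after knockdown. They were held at 6.96 ± 3.64% in BRM014 libraries and 78.7 ± 2.03% in DMSO libraries, which the rule had not used (n = 4 each, exact permutation p = 0.0286, adjusted p = 0.0327). Kept regions were held at 94.5 ± 4.68% in BRM014 and 99.1 ± 0.351% in DMSO. After knockdown, lost regions were held at 13.9 ± 12.2% in siBRG1+siBRM and 70.8 ± 5.08% in siCtl (n = 4 each, exact permutation p = 0.0286, adjusted p = 0.0327), with the siBRG1+siBRM libraries ranging between 4.03 and 31.7%. By the same rule on the same regions, 15721 were lost with BRM014 alone, and 9001 were lost in both, which is 51.0% of the losses with hormone and 57.3% of those without. Only 11644 of the losses with hormone were held by all 4 DMSO libraries and could be lost there, and 77.3% were. The knockdown lost 8268, of which 4402 were shared (25.0% of the losses here, 53.2% of those there), and 3378 regions were lost in all 3 comparisons. Of the losses here, 9576 were held by all 4 siCtl libraries, and 46.0% of these were lost after knockdown. Of all 67238 regions held by the 4 DEX+DMSO libraries, 11116 were lost with BRM014 alone and 5717 after knockdown. The inhibitor's effect on the number of peaks was -43289 with dexamethasone and -40483 without, a difference of -2806 (permutation over 4900 arrangements, p = 0.67). On the distal share it was -9.65 points with and -9.15 points without, a difference of -0.50 points (same permutation, p = 0.798). The dexamethasone label was permuted among libraries with inhibitor and among those with DMSO. That assumes no dexamethasone effect in either, so these p are not exact for a difference of effects. Neither difference between the hormone states was detected, which does not show that they are equal.

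The 124 gained regions were small and weak, with a median width of 150.5 bp and a median fold of 5.67 in DEX+BRM014. Genes with a gained region within 50 kb numbered 275 of 19467 (1.41%). The best-ranked lay near LYST, GRAPL and CITED2 and inside COL3A1, BEST1 and AHNAK2, with others inside RIMS2 and in a stretch whose nearest protein-coding gene, SNX13, was 190945 bp away. The COL3A1 region (chr2:188976499-188976690), in a gene of fibrillar collagen, had folds of 7.94, 12.0, 9.52 and 6.59 in DEX+BRM014 and no peak in DEX+DMSO. CXCL1, a neutrophil chemokine, was the list gene with most gained regions, 3, and the one 686 bp from its end (chr4:73871791-73872196) had folds of 5.30, 5.45, 4.90 and 4.66 in DEX+BRM014 and no peak in DEX+DMSO. That region was held by 4 of 4 BRM014 and 3 of 4 DMSO libraries and by all 3 siCtl_DEX and all 3 siCtl_Veh libraries, so DEX+DMSO was the group that lacked it. Gained regions were held at 59.1 ± 16.4% in BRM014 and 28.8 ± 4.39% in DMSO libraries (n = 4 each, exact permutation p = 0.0286, adjusted p = 0.0327), and at 27.4 ± 6.55% in siBRG1+siBRM and 27.0 ± 5.45% in siCtl (exact permutation p = 0.914). They were also held at 54.0 ± 6.09% in siCtl_DEX and 45.2 ± 2.91% in siCtl_Veh libraries (SD, n = 3 each), none of which had inhibitor.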

How the data were processed

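Accessible chromatin was measured by ATAC-seq in BT549 cells. The deposited files are 1 peak list per library. Processing involved HOMER, MACS2, SAMtools and bcl2fastq on GRCh38 (hg38), per the submitters' processing notes. For the aligner, read shifting and caller settings nothing is given in the sources used here. The authors deposited, per peak, a fold over background (a ratio), a −log10 p, a −log10 q of at least 1.30, and a score.

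The members and gene lists were chosen with earlier results of these data known. Peaks of the 8 libraries were merged, and presence was an overlap of at least 1 bp. Gene ends came from the RefSeq table of GRCh38.p14, which gives no strand, and genes were assigned regions within 50 kb. Background was recovered with a Poisson model within a tolerance of 0.002. Group means were set against each other in exact permutation tests (two-sided), adjusted by Benjamini-Hochberg. The scripts were tested on simulated data. Named genes were 10 fixed ones, up to 4 per list with most lost and up to 2 with most gained regions, the 8 best-ranked lost and 8 best-ranked gained regions, the 5 genes with most lost regions, and list genes with a lost end region. MBNL2, MT2A, CCN2 and CXCL8 fall outside that rule, and their windows were chosen after their values were seen. Python 3.11.15, numpy 2.4.6, pandas 2.3.3, scipy 1.17.1 and matplotlib 3.10.9 were used. Alternatives are described with their effects in the closing section.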

Additional observations from a re-analysis of the deposited data

How the results depend on the processing

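Peaks, covered length, peak widths, distal share, the held share of independently chosen regions and its distal and hormone-opened ratios kept their direction and side of 0.05 at a −log10 q of at least 5 and without each library in turn. So did these, other than peaks, with the best 49906 peaks of each library, but most sizes shrank: -3.82 in place of -9.41 Mb covered, -4.13 in place of -9.65 points distal, -5.47 in place of -33.3 points held, and -1.27 in place of -2.38 for the log2 hormone-opened ratio. Lost regions held in BRM014 minus DMSO libraries came to -28.0 in place of -71.7 points, and in siBRG1+siBRM minus siCtl to -20.9 in place of -56.8. The median peak width differed by -71.25 in place of -17.75 bp. The strength-class ratios and the background level were not rerun. With the same number of best peaks, 5846 regions were lost and 1306 gained, 5 lists lay above all regions, and the AP-1 difference between lost and kept windows was 19.8 points in place of 8.94. With DEX+DMSO libraries kept to the mean number of DEX+BRM014 peaks, an alternative chosen after seeing the data, 6269 were lost and 1118 gained. The cause was not tested. At most 1 of 4 against at least 3 of 4 gave 33418 lost and 1052 gained, and windows of 250 bp around summits gave 71 gained. Without each library, lost regions ranged between 18289 and 20173 and gained regions between 157 and 276 (276 without DEX+BRM014 replicate 4, 228 without its replicate 3 and 189 without its replicate 1). All of these exceed the counts with every library, because the rule is looser when fewer libraries must agree.

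The difference between hormone states in the distal share turned sign without DEX+BRM014 replicate 3 (0.0267 points, permutation p = 0.991) and without BRM014 replicate 3 (0.59 points, permutation p = 0.76), over a range of -1.72 to 0.59 points, and for peaks of -6992 to -336, with no permutation p below 0.05. Same-numbered libraries had correlations of deviations of 0.0363 to 0.0963, and differently numbered ones of -0.0428 to 0.0143. Each library correlated best with its own number, so a shared replicate block is possible, though the labels state none. The main tests take the libraries as unpaired. The tests on independently chosen regions and in the other libraries were not rerun with a block. With the replicate block, the differences were the same (-43289 peaks, -9.41 Mb, -17.75 and -40.5 bp, -9.65 points), and the exact p was 0.125, the smallest 4 pairs allow. Lost and gained counts are the same within pairs by construction. Depth is unknown, so an absent peak means none called at that depth.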

Other observations

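The 8 gained regions of best rank did not behave alike in the other libraries. The AHNAK2 region, in a gene of a large scaffold protein, was held by 4 of 4 BRM014 and 0 of 4 DMSO libraries. The region assigned to SNX13, 190945 bp from it, was held by 4 of 4 BRM014 and 4 of 4 DMSO libraries, so that DEX+DMSO alone among those 4 groups lacked it. The RIMS2 region was held by 1 BRM014 library and by none of the DMSO, siBRG1+siBRM or siCtl libraries. Of the 124 gained regions, 35 were held by all 4 BRM014 libraries and 58 by no DMSO library.

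Held entries at gene starts were lost in a smaller share than those at the other ends of genes. At the starts of 11298 genes 953 of 15969 held entries were lost (5.97%). At the other ends of 1471 genes 244 of 1723 were lost (14.2%). The genes behind these shares differ in number, and starts and other ends were not compared gene by gene. An entry is a gene and a region, entered once for each promoter window of the gene. Some pairs of gene and region therefore count more than once. Short genes were left out. By chromosome the share lost ranged between 11.8% on chromosome 19 and 32.5% on chromosome 4. Regions over 20 kb from the next region were lost at 31.7%, and those under 1 kb at 18.4%.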
